A study of Mus musculus with 18 samples.

Results

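The comparison described here set DR-ER-Hoxb8 cells that differentiated with SL0101-01 (SL0101 below) against the same cells with DMSO, the solvent control. Each group held 2 RNA-seq libraries, so 4 of the 18 libraries of the series entered the comparison, and 11261 of the 22787 genes in the table had a value of 1 or more in at least 2 of those 4 libraries and were tested. ER-Hoxb8 cells are an immortalized mouse myeloid progenitor line in which a Hoxb8 protein fused to the estrogen receptor holds the cells immature while estradiol is present. All groups were grown in medium with stem cell factor (SCF), the ligand of Kit, and differentiated for 3 days in SCF medium from which estradiol had been left out. SL0101 was given at 10 nM according to the labels, which is low for this compound in cell culture, where micromolar doses are usual, and a further group of 2 libraries received rapamycin at 100 nM. The series also holds sorted granulocyte-monocyte progenitors from Raptor and Tsc2 knockout mice and their controls, which were not compared here. The labels give 1 cell line, whose prefix DR they do not explain, and do not say whether the 2 libraries of a group came from separate cultures, so the tests below measure the spread between these libraries, which may be technical.

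SL0101 is used as an inhibitor of the p90 ribosomal S6 kinases (RSK), which act below ERK in the Ras pathway and phosphorylate ribosomal protein S6, translation regulators and transcription factors. Rapamycin inhibits mTORC1, a kinase complex that drives ribosome production, translation and lipid synthesis and that also reaches S6 through the S6 kinases. Myeloid progenitors make primary granule proteins such as myeloperoxidase first; secondary granule proteins, phagocyte receptors and lysosomal enzymes follow as the cells turn into neutrophils or macrophages, while growth and cell cycle genes decline.

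The 6 Hoxb8 libraries held between 2313884 and 3296898 fragments, and 10871 to 11842 genes reached a value of 1 in each. Values are fragments scaled by a size factor for each library and are not divided by gene length, so levels were compared between libraries and not between genes. Replicates differed by a median of 0.235 (DMSO) and 0.249 (SL0101) on the log2 scale. Between the 2 replicates of a group, 796 genes (DMSO) and 975 genes (SL0101) differed at least 2-fold on the scale of log2(value + 1). The cells carried the transcripts of their labelled type in every library, among them Mpo, Elane, Kit, Hoxb8 and S100a8.

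With SL0101, 1294 genes differed from DMSO at an adjusted p under 0.05 (limma on log2(value + 1), adjusted over all genes tested), which is 11.5% of those tested. Of these, 610 (5.42% of the tested genes) were higher and 684 (6.07%) were lower. The falls were larger than the rises: 356 of the lower genes and 194 of the higher genes changed at least 2-fold, and 118 against 25 changed at least 4-fold. The median change over all genes was -0.02 on the log2 scale. Fewer genes were called when any 1 of the 4 libraries was left out. Such a fit has 1 library in a group and fewer degrees of freedom, so it has less power whichever library goes. Here and below, a call lost in this way does not by itself show that a difference rests on the library left out. The count of called genes was 128 when the variance was not modelled as a function of expression level. It was 657 when all 18 libraries shared the estimate of the spread, with 63.9% rather than 47.1% of the calls then being higher. Of 125 called genes named by rule, 23 stayed called without that trend and 79 with all 18 libraries.

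**Figure D1:**
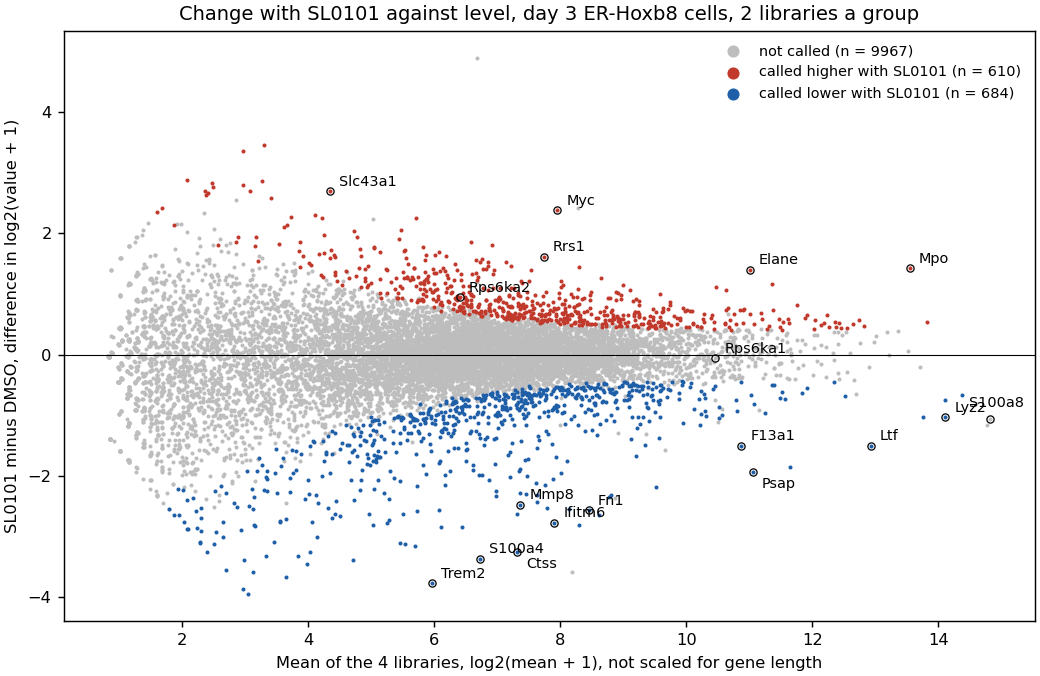
Each point is 1 of 11261 tested genes; the x axis is the log2 of the mean value of the 4 DMSO and SL0101 libraries plus 1, and the y axis is the SL0101 minus DMSO difference in log2(value + 1), with called genes in colour. The 684 lower genes (blue) reach further from 0 than the 610 higher genes (red), and macrophage and granule genes such as Trem2, Ctss, Psap and Ltf lie below 0 while Mpo, Elane and Myc lie above it.

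The RSK genes themselves were first examined. Rps6ka1, which encodes RSK1, read 1457 and 1413 in the DMSO libraries and 1259 and 1507 in the SL0101 libraries; the groups overlapped, and the difference of -0.06 had a 95% interval from -0.36 to 0.24 on the log2 scale. Rps6ka3 (RSK2) read 57.7 and 53.1 with DMSO and 38.5 and 46.2 with SL0101, a difference of -0.38 with an interval from -0.92 to 0.15, which did not pass the test (limma adjusted p = 0.375). Rps6ka2 (RSK3) rose from 54.5 and 58.9 to 97.1 and 125 (log2 fold change 0.95 ± 0.22 SE, limma adjusted p = 0.00734). That call was lost without DMSO replicate 1, DMSO replicate 2 or SL0101 replicate 2, with adjusted p up to 0.0973. With rapamycin Rps6ka2 read 117 and 111. Rps6ka6 (RSK4) was listed at 0 in all 6 libraries. Rps6ka2 was the 1 called member of 12 tested RSK, MSK, S6 kinase and ERK cascade genes (8.33%, against 11.5% of all tested genes). None of 17 tested mTORC1, mTORC2 and TSC components was called in limma's test. An inhibitor acts on protein activity, so these transcript levels do not check the treatment.

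Genes that ERK signalling induces, and the feedback genes that restrain it, went both ways. Of 26 tested, 3 rose and 3 fell (11.5% each, against 5.42% higher and 6.07% lower over all tested genes). Their median was 0.31. Dusp6, a phosphatase of ERK, rose from 79.8 and 75.5 to 175 and 263 (1.45 ± 0.20 SE, limma adjusted p = 6.63e-05), and Myc rose as described below. Fos, which encodes an AP-1 subunit, fell from 64 and 61.4 to 28.9 and 25 (-1.19, limma adjusted p = 0.0114), and Zfp36, which encodes an mRNA-destabilizing protein, fell from 77.4 and 78.8 to 43.7 and 38.6 (-0.91, limma adjusted p = 0.0248). Klf6, a zinc finger transcription factor, fell from 637 and 604 to 436 and 458. None of the 3 falls was called once any 1 of the 4 libraries was left out. Ier2, an immediate early gene, read 405 and 469 with DMSO and 624 and 481 with SL0101, and did not pass the test (limma adjusted p = 0.204).

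**Figure D2:**
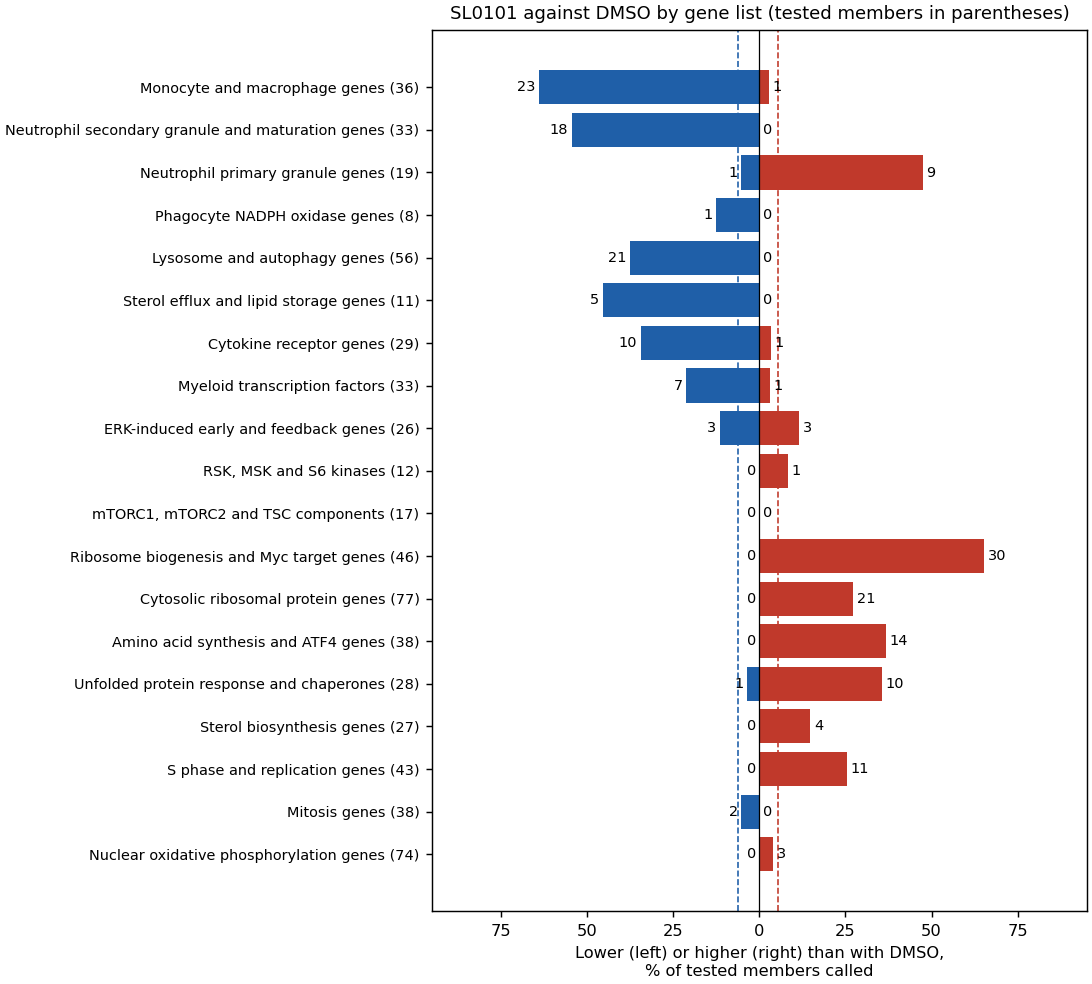
Bars give the share of each list's tested members (number in parentheses) called lower (blue, left) or higher (red, right) with SL0101 than with DMSO, with the number of genes at the end of the bar; dashed lines mark the shares over all tested genes, 6.07% lower and 5.42% higher. Macrophage, secondary granule and lysosome lists extend to the left, with 23, 18 and 21 genes, and ribosome biogenesis, ribosomal protein and amino acid lists extend to the right, with 30, 21 and 14 genes.

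Most tested macrophage genes were lower with SL0101. Of 36 tested monocyte and macrophage genes, 23 fell and 1 rose, with a median change of -1.52 against -0.02 over all genes. Trem2, a lipid-sensing receptor of macrophages, read 99.6 and 127 in the DMSO libraries and 3.5 and 14.4 in the SL0101 libraries (-3.77 ± 0.50 SE, limma adjusted p = 3.79e-05). Ctss, the lysosomal protease cathepsin S, fell from 259 and 315 to 23.6 and 35.6 (-3.25 ± 0.30, limma adjusted p = 2.86e-07). In neither gene did the groups come near each other. Gpnmb, a membrane glycoprotein of lysosome-rich macrophages, fell from 49 and 44 to 5.25 and 2.27 (-3.39). Fn1, fibronectin, fell from 673 and 521 to 99.7 and 98.5 (-2.57 ± 0.19). Lgals3, which encodes galectin-3, fell from 342 and 404 to 77.8 and 51.5 (-2.53). Mpeg1, a pore-forming protein of phagocytes, fell from 622 and 867 to 138 and 156 (-2.31). Psap, the precursor of the saposins that activate lysosomal lipid hydrolases, fell from 3240 and 3504 to 866 and 893 (-1.94 ± 0.14). F13a1, coagulation factor XIII A chain of monocytes, fell from 2693 and 2847 to 903 and 1059 (-1.50). Ms4a6c fell from 71.9 and 83 to 5.25 and 12.1, and Ccr2, the receptor that draws monocytes into tissue, from 124 and 179 to 15.7 and 25 (-2.85). These 10 genes stayed called when any 1 of the 4 libraries was left out, the highest limma adjusted p being 0.026 for Ms4a6c. In bulk RNA, fewer cells of a type and less of its RNA per cell cannot be told apart.

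The macrophage list did not move as 1 block. Cd14, the co-receptor for lipopolysaccharide, was its 1 rise, from 372 and 443 to 710 and 836 (0.92 ± 0.15, limma adjusted p = 0.000364); it is named here for its direction, after its values were seen. Csf1r, the receptor for the macrophage growth factor, likewise chosen after its values were seen, read 1669 and 1850 with DMSO and 1186 and 915 with SL0101, and did not pass the test (limma adjusted p = 0.335). The other genes of the list that were not called had differences between -1.94 (Ms4a6d) and 0.07 (Ly6c1). The number of falls was 15 without DMSO replicate 2 and 19 to 22 without any other of the 4 libraries. It was 10 without the expression trend, which ended the calls of Trem2 and Ms4a6c (limma adjusted p of 0.0656 and 0.0757). With all 18 libraries in the fit it was 12, which ended the calls of Ccr2, Fn1 and F13a1.

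Genes of the secondary and tertiary granules and of neutrophil maturation fell in the same libraries. Of 33 tested, 18 fell and none rose in limma's test, with a median of -1.07. Mmp8, neutrophil collagenase, read 265 and 288 with DMSO and 64.7 and 37.1 with SL0101 (-2.47 ± 0.22, limma adjusted p = 1.78e-07). Mmp9, gelatinase B, fell from 293 and 362 to 75.2 and 55.3 (-2.32 ± 0.24). Ltf, which encodes lactoferrin, fell from 10967 and 11899 to 3137 and 5182 (-1.50 ± 0.17, limma adjusted p = 5.74e-06). Lyz2, lysozyme, fell from 22127 and 25356 to 11056 and 12156 (-1.03), and Lcn2, the iron-siderophore carrier lipocalin-2, from 15371 and 21923 to 8108 and 10085 (-1.02). Cxcr2, the neutrophil chemokine receptor, fell from 152 and 209 to 54.2 and 84.9 (-1.38 ± 0.23). Each of these 6 genes had both SL0101 libraries below both DMSO libraries and stayed called without any 1 of the 4.

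S100a8 and S100a9, the calprotectin subunits and the members of this list with the highest values, did not pass the test. S100a8 read 33031 and 45322 with DMSO and 14900 and 22859 with SL0101 (-1.07 ± 0.53, limma adjusted p = 0.346). S100a9 read 30793 and 46058 with DMSO and 13081 and 21794 with SL0101 (-1.16 ± 0.57, limma adjusted p = 0.346). The groups do not overlap, but replicates of 1 group lie far apart, in the rapamycin group by over 2-fold (12353 and 27201 for S100a8). Replicate 2 read above replicate 1 for S100a8 in every group. The summed value of the list did so too, at 168300 and 223900 with DMSO, 84050 and 121500 with SL0101 and 104400 and 144500 with rapamycin. A replicate term in the fit, given under the dependence on processing, changed both results. Without rapamycin replicate 1 or 2 the S100a8 difference was called, with adjusted p of 0.00654 and 0.00498, and so it was when only the 4 libraries compared were fitted (0.00778). S100a9 was called with the non-robust fit (0.0455). The number of falls on the list was 12 without DMSO replicate 2 and 12 without SL0101 replicate 1. Without the expression trend 2 were called, and with all 18 libraries in the fit 1 was called.

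Calls on the primary granule list were mostly rises. Of 19 tested, 9 rose and 1 fell, with a median of 0.52. The list also holds genes that do not encode primary granule proteins, such as Calr, Alas1, Gfi1, Cebpe and Hp. It shares 1 called member with the chaperone list, 1 with the haem and iron list and 1, Ctsc, with the lysosome list, which are counted there as well. Mpo, myeloperoxidase, read 6305 and 6634 with DMSO and 14940 and 19997 with SL0101 (1.42 ± 0.14, limma adjusted p = 7.32e-07). Elane, neutrophil elastase, rose from 1154 and 1109 to 3049 and 2917 (1.40 ± 0.15, limma adjusted p = 1.8e-06), and Prtn3, proteinase 3, from 1545 and 1680 to 3226 and 4015 (1.16 ± 0.14). In these 3 serine protease and peroxidase genes every SL0101 library read above both DMSO libraries. The 1 fall was Ctsc, whose product cathepsin C activates those same proteases; it read 620 and 635 with DMSO and 303 and 286 with SL0101 (-1.09 ± 0.16, limma adjusted p = 0.000131). Hp, haptoglobin, read 6931 and 7828 with DMSO and 9176 and 8935 with SL0101, a difference of 0.30 with an interval from 0.03 to 0.56 that did not pass the adjusted test (limma adjusted p = 0.145). The number of rises was 4 without DMSO replicate 1, 5 without DMSO replicate 2, 4 without SL0101 replicate 2 and 9 without SL0101 replicate 1. No rise on the list was called without the expression trend or with all 18 libraries in the fit (limma adjusted p = 0.222 for Mpo in the latter). Of 8 tested genes for the phagocyte NADPH oxidase, 1 was called (12.5%, against 11.5% of all tested genes). It was Cybb, the catalytic subunit, which read 2167 and 2500 with DMSO and 1014 and 1463 with SL0101 (-0.93, limma adjusted p = 0.000553). Without DMSO replicate 2 the Cybb call was lost, with an adjusted p of 0.0542.

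**Figure D3:**
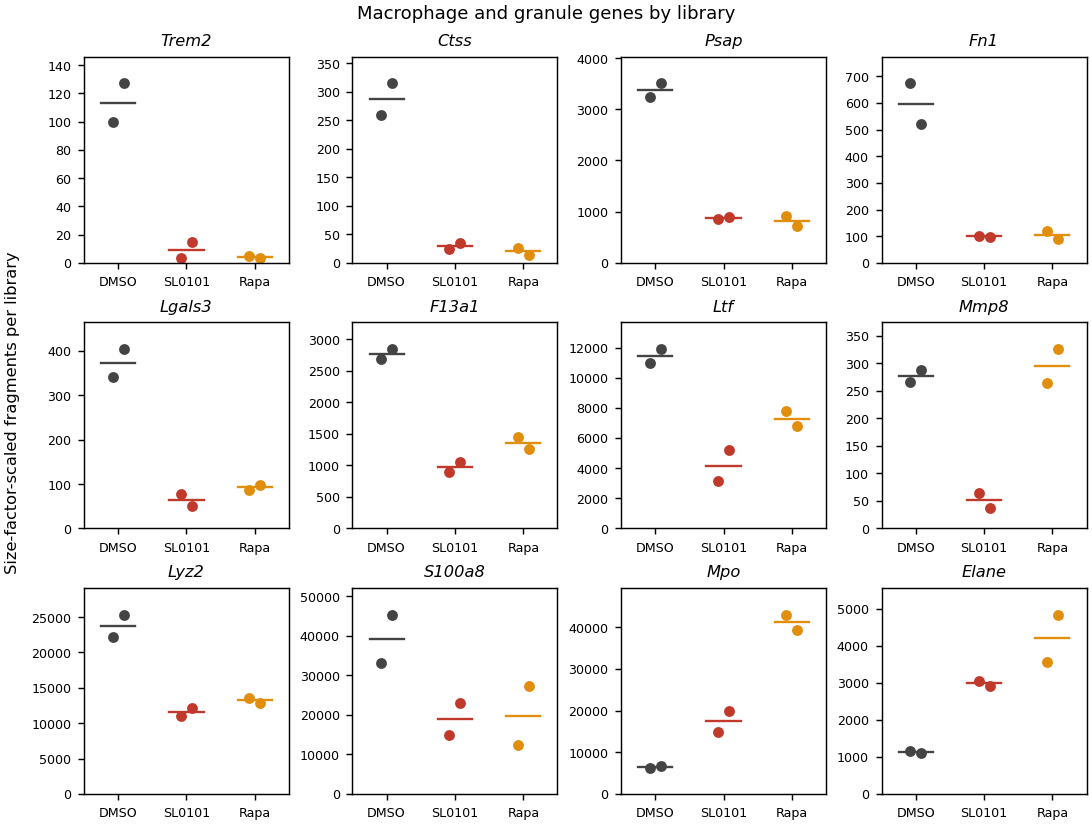
Values of 12 genes in the 6 Hoxb8 libraries (points; bars are the mean of 2 libraries), with the size-factor-scaled value on a linear y axis from 0. Trem2, Ctss, Psap, Fn1, Lgals3, F13a1, Ltf, Mmp8 and Lyz2 read lower in both SL0101 libraries than in both DMSO libraries, S100a8 shows the wide spread between replicates, and Mpo and Elane read higher; Mmp8 reads 265 and 326 with rapamycin.

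The lysosomal genes that were called were all lower with SL0101. Of 56 tested lysosome and autophagy genes, 21 fell and none rose in limma's test, with a median of -0.42. Ctsc, also counted on the primary granule list, is 1 of these falls. The 4 members shared with the macrophage list, among them Ctss, Psap and Gpnmb, all fell. Among the hydrolases outside that list, Ctsd, cathepsin D, read 7117 and 7306 with DMSO and 4453 and 4527 with SL0101 (-0.68 ± 0.13, limma adjusted p = 0.00143). Ctsl, cathepsin L, fell from 58.5 and 66.4 to 19.2 and 34.9 (-1.23, limma adjusted p = 0.0122), and Atp6v1a, the catalytic subunit of the proton pump that acidifies lysosomes, from 849 and 992 to 579 and 639 (-0.59, limma adjusted p = 0.0093). Ctsd, Ctsl and Atp6v1a are named for their promoter sequences, after their values were seen, and each lost its call without DMSO replicate 2 (adjusted p of 0.0533, 0.164 and 0.196); Ctsl also lost it without DMSO replicate 1 (0.0904) or SL0101 replicate 1 (0.208), and Atp6v1a without SL0101 replicate 1 (0.122). The number of falls on the list was 8 without DMSO replicate 1, 7 without DMSO replicate 2, 11 without SL0101 replicate 1 and 16 without SL0101 replicate 2. It was 3 without the expression trend and 13 with all 18 libraries in the fit.

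Genes for lipid export and storage included falls as well. Of 11 tested, 5 fell and none rose in limma's test. Lpl, lipoprotein lipase, fell from 232 and 236 to 56.8 and 57.6 (-2.01 ± 0.24, limma adjusted p = 1.08e-05). Soat1, which esterifies cholesterol, fell from 1050 and 1008 to 436 and 577 (-1.03), and Lipa, the lysosomal acid lipase, from 811 and 701 to 420 and 321 (-1.04). Abcg1, a cholesterol exporter, fell from 49.8 and 75.5 to 22.7 and 16.7 (-1.61, limma adjusted p = 0.00389), and lost its call without DMSO replicate 2 (adjusted p = 0.142). Without DMSO replicate 2 the count of falls was 3, without the expression trend it was 1, and with all 18 libraries in the fit it was 2.

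Myc and the genes for building ribosomes were higher with SL0101. Myc, the transcription factor that drives ribosome production, read 90.9 and 68.1 with DMSO and 419 and 408 with SL0101 (2.38 ± 0.18, limma adjusted p = 1.12e-08), and stayed called under every alternative that was run. On the list of ribosome biogenesis and Myc target genes, 30 of the 46 tested were higher and none was lower in limma's test, with a median of 0.75. Rrs1, a ribosome assembly factor, rose from 101 and 107 to 359 and 284 (1.61 ± 0.18, limma adjusted p = 6.2e-06). Nop58, a core protein of box C/D small nucleolar RNA particles, rose from 149 and 161 to 364 and 352 (1.21 ± 0.16). Srm, spermidine synthase, rose from 51.4 and 49.8 to 248 and 128 (1.80 ± 0.25), with the 2 SL0101 libraries far apart but both above DMSO. The members of the list that are partners or antagonists of Myc, Max, Mnt and the Mxd genes, were not called; their differences lay between -0.49 (Max) and -0.03 (Mnt). The number of rises was 14 without DMSO replicate 1, 15 without DMSO replicate 2, 16 without SL0101 replicate 1 and 21 without SL0101 replicate 2. It was 4 without the expression trend and 28 with all 18 libraries in the fit.

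Some cytosolic ribosomal protein genes rose. Of 77 tested, 21 rose and none fell in limma's test, 56 were not called, and the median was 0.34. Rpl12 read 1476 and 1731 with DMSO and 2523 and 2537 with SL0101 (0.66 ± 0.14, limma adjusted p = 0.00347). Rpl13 rose from 2904 and 3082 to 4941 and 4485 (0.65 ± 0.13), and Rpl8 from 2812 and 3199 to 4565 and 4515 (0.60); without DMSO replicate 1 the 3 genes had adjusted p of 0.114, 0.0632 and 0.115, and without SL0101 replicate 1 Rpl13 and Rpl8 had 0.0681 and 0.0673. The summed value of all 77 genes was 134500 and 159200 in the DMSO libraries and 187100 and 193600 in the SL0101 libraries, so that the DMSO libraries themselves differ. Fewer rises were called when any 1 of the 4 libraries was left out, which leaves 1 library in a group. In those fits the difference ran from 0.547 to 0.777 for Rpl12, 0.584 to 0.724 for Rpl13 and 0.505 to 0.691 for Rpl8. No ribosomal protein gene was called without the expression trend, and 18 were with all 18 libraries in the fit. Processed pseudogenes of ribosomal protein genes could take or give reads here, which leaves the single values uncertain.

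**Figure D4:**
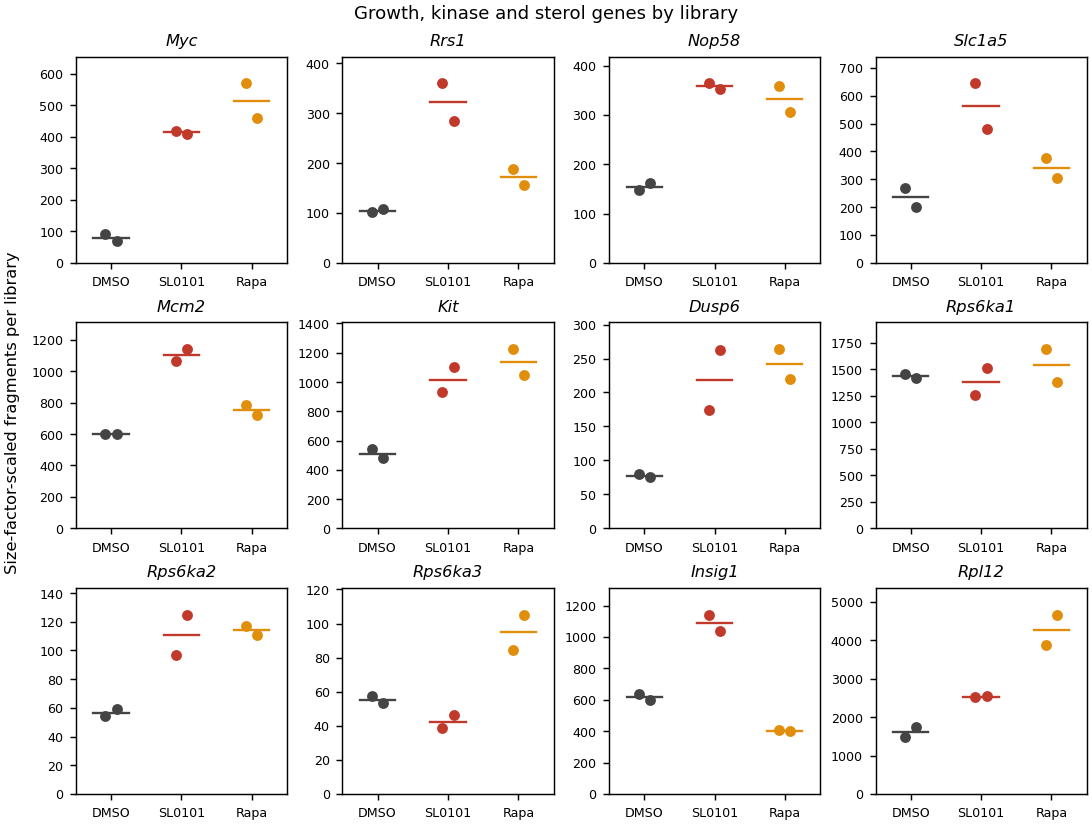
Values of 12 genes in the 6 Hoxb8 libraries (points; bars are the mean of 2 libraries), with the size-factor-scaled value on a linear y axis from 0. Myc, Rrs1, Nop58, Slc1a5, Mcm2, Kit, Dusp6, Rps6ka2, Insig1 and Rpl12 read higher in both SL0101 libraries than in both DMSO libraries, and Rps6ka1 overlaps; Insig1 reads 404 and 401 with rapamycin, below both other groups.

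The E-box CACGTG is the core site that Myc with Max, and also the TFEB family that acts on lysosomal genes, can bind; it reads the same on both strands. It was searched in RefSeq promoter windows (GRCm38.p6, 250 bases before to 50 after a listed start), because the ribosome biogenesis and lysosome lists each held many calls, in opposite directions. Windows were found by symbol for 8582 of the tested genes, and any listed start counted. The motif was in the windows of 12% of tested genes, of 17% of the 471 higher genes with a window, of 11.9% of the 514 lower genes and of 11.7% of the genes not called; 7.15% of all 32851 windows in the table held it. It was present for 12 of 40 ribosome biogenesis genes (30%) and 13 of 43 lysosome genes (30.2%), but for 1 of 27 macrophage genes (3.7%). The stretches that follow come from called genes of both lists with a single listed start and the motif before it, printed with CACGTG in capitals, 5′ to 3′ on the strand of the gene. The Ctsd window holds the motif at 2 places; the one farthest before the start is shown, and its stretch is shorter because the window begins there.
Nop2 (higher), chr6:125131811-125131840, plus strand: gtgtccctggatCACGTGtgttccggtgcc
Ctsd (lower), chr7:142388055-142388077, minus strand: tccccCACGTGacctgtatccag
Ctsl (lower), chr13:64370739-64370768, minus strand: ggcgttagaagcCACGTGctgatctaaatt
Atp6v1a (lower), chr16:44139373-44139402, minus strand: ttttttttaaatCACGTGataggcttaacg
In the GENCODE M21 annotation the Nop2 and Ctsd stretches lie before the gene, and those of Ctsl and Atp6v1a lie in an intron, since GENCODE places the gene start further upstream. Nop2, a nucleolar RNA methyltransferase, rose from 68.7 and 83.8 to 182 and 147 (1.10 ± 0.22, limma adjusted p = 0.00273), and lost its call without DMSO replicate 1 or SL0101 replicate 1 (adjusted p of 0.0787 and 0.0669); the 3 lysosomal genes with the same 6 bases fell. The match describes the sequence only, and binding was not measured.

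Some amino acid supply and protein folding genes rose, and most were not called. Of 38 tested amino acid synthesis and ATF4 genes, 14 rose and none fell in limma's test, with a median of 0.38. Slc1a5, the glutamine carrier, rose from 268 and 202 to 644 and 480 (1.25 ± 0.18, limma adjusted p = 8.85e-05). Phgdh, which opens serine synthesis, rose from 209 and 245 to 473 and 397 (0.93), Shmt2, the mitochondrial enzyme that takes one-carbon units from serine, from 154 and 192 to 339 and 317 (0.93), and Aldh18a1, of proline synthesis, from 41.1 and 32.4 to 84 and 119 (1.43). The number of rises was 8 without DMSO replicate 1, 6 without DMSO replicate 2, 11 without SL0101 replicate 1 and 9 without SL0101 replicate 2, and none was called in limma's test without the expression trend. Of 28 chaperone and unfolded protein response genes, 10 rose (35.7%) and 1 fell (3.57%), against 5.42% and 6.07% over all tested genes. Hspd1, the mitochondrial chaperonin, rose from 299 and 310 to 578 and 582 (0.93 ± 0.14, limma adjusted p = 0.000206). Edem1, which hands misfolded glycoproteins to degradation, was the fall, from 533 and 432 to 287 and 302 (-0.70, limma adjusted p = 0.00455), and lost its call without DMSO replicate 1 (adjusted p = 0.138) or SL0101 replicate 1 (adjusted p = 0.0561). The chaperone rises numbered 2 without DMSO replicate 1, 1 without DMSO replicate 2, 4 without SL0101 replicate 1, 2 without SL0101 replicate 2, none without the expression trend and 5 with all 18 libraries in the fit.

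Within the cell cycle, some replication genes rose, and most replication and mitosis genes were not called. Of 43 tested S phase genes, 11 rose and none fell in limma's test, with a median of 0.34. Mcm2 and Mcm6, subunits of the replicative helicase, rose from 602 and 603 to 1067 and 1140 (0.87 ± 0.14, limma adjusted p = 0.00026) and from 1222 and 1159 to 2184 and 1871 (0.76). Dut, which keeps uracil out of DNA, rose from 333 and 354 to 704 and 597 (0.92). Of 38 mitosis genes none rose in limma's test and 2 (5.26%) fell, against 6.07% lower over all genes, with a median of -0.11. Mki67, the Ki-67 gene, read 1357 and 1147 with DMSO and 838 and 895 with SL0101 (-0.53, limma adjusted p = 0.0313). Hmmr, a spindle protein, read 209 and 229 against 147 and 132 (-0.65, limma adjusted p = 0.024). Both falls were lost without any 1 of the 4 libraries. Cdk6, the G1 kinase, rose from 338 and 301 to 682 and 606 (1.01 ± 0.15, limma adjusted p = 0.000141), and Ccnd2, cyclin D2, from 30 and 13.3 to 73.5 and 63.7 (1.72). They were the 2 calls among 15 G1 genes (13.3%, against 11.5% of all tested genes). The S phase rises numbered 5 without DMSO replicate 1, 4 without DMSO replicate 2, 4 without SL0101 replicate 1, 7 without SL0101 replicate 2, none without the expression trend and 9 with all 18 libraries in the fit.

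Sterol synthesis genes leaned upward, with few calls. Of 27 tested, 25 had a positive difference and 4 rose, with a median of 0.33. Insig1, which holds back SREBP processing and is itself an SREBP target, rose from 634 and 600 to 1142 and 1039 (0.82 ± 0.14, limma adjusted p = 0.000567). Sqle, squalene epoxidase, rose from 394 and 349 to 652 and 510 (0.63, limma adjusted p = 0.0128). Sqle was not called without DMSO replicate 1, DMSO replicate 2 or SL0101 replicate 1; the list held 2 rises in each case, and none of the 4 rises was called in limma's test without the expression trend or with all 18 libraries in the fit. Of 16 fatty acid synthesis genes 3 rose (18.8%, against 5.42% over all tested genes). They were Acsl1 from 1338 and 1328 to 2126 and 2112 (0.67), Fasn, fatty acid synthase, from 492 and 455 to 806 and 671 (0.64), and Acly, ATP citrate lyase, from 856 and 864 to 1164 and 1192 (0.45). None of the 3 was called without DMSO replicate 1 or without DMSO replicate 2, 1 was called without SL0101 replicate 1, and 2 were called without SL0101 replicate 2.

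Calls among cytokine receptors and lineage factors were mostly falls. Of 29 tested receptor genes, 10 fell (34.5%, against 6.07% of all tested genes) and 1 rose. The rise was Kit, the SCF receptor, from 541 and 480 to 934 and 1099 (0.99 ± 0.15, limma adjusted p = 0.000136). Of the called receptor genes, 1 is also on the macrophage list, 1 on the secondary granule list and 1 on the stem list. Il17ra fell from 472 and 426 to 258 and 224 (-0.90, limma adjusted p = 0.00155), with an adjusted p of 0.0639 without DMSO replicate 1. Receptor falls numbered 4 without DMSO replicate 1, 4 without DMSO replicate 2, 6 without SL0101 replicate 1, 8 without SL0101 replicate 2, 1 without the expression trend and 4 with all 18 libraries in the fit. Of 33 myeloid transcription factors, 7 fell (21.2%) and 1 rose. Called factors are shared with other lists, 2 with the macrophage list and 1 each with the lysosome, FOXO, stem and dendritic lists. Shared genes are counted on each list. Bcl6, a repressor, fell from 198 and 239 to 62.1 and 98.5 (-1.46 ± 0.21, limma adjusted p = 9.03e-05), and Irf5 from 126 and 153 to 45.5 and 35.6 (-1.76). Irf8, a factor for monocytes and dendritic cells, fell from 120 and 125 to 41.1 and 42.4 (-1.53, limma adjusted p = 0.00151), with an adjusted p of 0.0625 without DMSO replicate 2. Irf4 fell from 37.1 and 43.2 to 11.4 and 6.82 (-2.06, limma adjusted p = 0.00343), with an adjusted p of 0.0944 without DMSO replicate 2 and 0.0529 without DMSO replicate 1. The factor falls numbered 4 without DMSO replicate 1, 2 without DMSO replicate 2, 4 without SL0101 replicate 1, 5 without SL0101 replicate 2 and none without the expression trend.

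Among 19 tested stem and early progenitor genes, 4 rose (21.1%) and 2 fell (10.5%), against 5.42% and 6.07% over all tested genes. Besides Kit, Hoxb8 read 627 and 552 with DMSO and 816 and 815 with SL0101 (0.47, limma adjusted p = 0.0347); its reads cannot be divided between the fusion transgene and the endogenous gene, it was named after its values were seen, and its call was lost without any 1 of the 4 libraries. Ifitm3, also an interferon-induced gene, fell from 1015 and 1168 to 454 and 388 (-1.37 ± 0.19, limma adjusted p = 4.58e-05), and Cd48 from 152 and 228 to 99.7 and 103 (-0.87, limma adjusted p = 0.00659), the latter with an adjusted p of 0.221 without DMSO replicate 2 and 0.0595 without SL0101 replicate 1. Rises numbered 2 without DMSO replicate 1 and 1 without any other of the 4 libraries.

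Other lists held a few calls each, where 5.42% of all tested genes were higher and 6.07% lower. Of 5 tested members of the Ifitm family 3 fell, led by Ifitm6 from 354 and 480 to 49.8 and 71.2 (-2.77 ± 0.21, limma adjusted p = 1.97e-08). Of 7 tested MHC class II genes 3 fell, among them H2-DMa, which loads peptides, from 232 and 345 to 110 and 111 (-1.35). Of 18 haem and iron genes 2 rose and 4 fell; Slc11a1, the phagosomal iron transporter, fell from 329 and 414 to 130 and 100 (-1.68 ± 0.21), and Ftl1, ferritin light chain, from 19809 and 24338 to 12920 and 13280 (-0.75, limma adjusted p = 0.000756), with an adjusted p of 0.0633 without DMSO replicate 2. Of 26 FOXO target and PI3K feedback genes 2 rose and 4 fell. Of 27 antioxidant genes 2 rose and 4 fell: Sod2, the mitochondrial superoxide dismutase, rose from 1677 and 1898 to 3075 and 2673 (0.68), and Sod1, the cytosolic one, fell from 557 and 612 to 421 and 272 (-0.79), neither call holding without DMSO replicate 1 (adjusted p of 0.0847 and 0.0795); the Sod2 call was also lost without SL0101 replicate 1 (0.0703), and the Sod1 call without DMSO replicate 2 (0.158) or SL0101 replicate 2 (0.157). Glycolysis and pentose phosphate genes gave 4 rises and 2 falls of 29, with Pgls from 755 and 758 to 1314 and 1183 (0.72), and 74 oxidative phosphorylation genes gave 3 rises, a share below that over all genes. The interferon list gave 3 falls of 30 (10%), the p53 list 1 of 21 (4.76%) and the Bcl2 list 1 of 13 (7.69%). Cytokine feedback genes of the SOCS and Pim families gave 2 rises of 15, cytokines 2 rises and 3 falls of 13, and hypoxia genes 3 rises and 1 fall of 17. These counts were small, and several shrank when 1 of the 4 libraries was left out, which leaves 1 library in a group.

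Markers of other blood and stromal cells were few. Of 13 B lymphoid markers 5 were listed at 0 in all 6 libraries, Ms4a1 and Pax5 among them, and their summed value was 6.32 and 10.8 with DMSO and 8.74 and 4.55 with SL0101. Of 17 T and NK markers 9 were listed at 0, with sums of 6.32 and 4.15 against 4.37 and 3.79, and of 10 stromal markers 6 were at 0, with sums of 19.8 and 20.8 against 31.5 and 15.2. Of 17 erythroid markers 7 were listed at 0, among them the globin genes Hba-a1, Hba-a2, Hbb-b1 and Hbb-b2. The erythroid sum of 36.3 and 33.2 against 82.2 and 56.8 was carried by Car2, a carbonic anhydrase. Car2 rose from 22.9 and 30.7 to 77 and 54.6 (1.26, limma adjusted p = 0.0106). It lost its call without DMSO replicate 1, DMSO replicate 2 or SL0101 replicate 1. Basophil, mast cell and eosinophil markers, 14 of 27 at 0, summed to 846 and 845 against 942 and 1005. Dendritic markers summed to 333 and 320 with DMSO and 242 and 192 with SL0101. Vwf was the 1 called megakaryocyte marker of 7 (14.3%, against 11.5% of all tested genes), at 24.5 and 19.9 with DMSO and about 1 fragment in each SL0101 library. The nuclear-retained RNAs Malat1 and Neat1 together read 2087 and 2105 with DMSO and 1307 and 1424 with SL0101; their part in the other changes was not tested.

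The 12 deepest falls among genes with at least 0.001% of the summed value ran from -3.77 to -2.85. Beside the macrophage genes above they held S100a4, a calcium-binding protein, from 165 and 217 to 17.5 and 17.4 (-3.36 ± 0.32, limma adjusted p = 5.53e-07), Clec4a3, a C-type lectin, from 73.5 and 90.5 to 7.87 and 9.09 (-3.12), and Cyp4f18, an enzyme that degrades leukotriene B4, from 126 and 114 to 14.9 and 16.7 (-2.85 ± 0.33). Hpse, heparanase, fell from 90.9 and 87.1 to 20.1 and 3.79 (-3.16). Tlr8, Bst1 and Fblim1 completed the 12, each with a few fragments in the SL0101 libraries. Without DMSO replicate 2 none of these 3 was called (limma adjusted p = 0.0694 for Tlr8, 0.0592 for Bst1 and 0.126 for Fblim1), and Tlr8 was also lost without DMSO replicate 1 (0.0854). The 12 largest rises ran from 1.80 to 2.69 and were led by Slc43a1, an amino acid transporter, from 3.95 and 4.98 to 33.2 and 34.9 (2.69 ± 0.43, limma adjusted p = 0.000271), with Myc second. Nme4 rose from 7.11 and 4.15 to 29.7 and 29.6 (2.25), Pus7, a pseudouridine synthase, from 19 and 13.3 to 84.8 and 56.1 (2.05), Ipo4, a nuclear import receptor, from 12.6 and 8.3 to 46.3 and 37.9 (1.93), and Atad3a, a mitochondrial membrane ATPase, from 36.3 and 44 to 175 and 124 (1.85). The 6 rises named here, Myc included, kept their calls without any 1 of the 4 libraries. Of the rest of the 12, Cd320 lost its call without DMSO replicate 2 (limma adjusted p = 0.192) or SL0101 replicate 1 (0.154), and Trmt61a without DMSO replicate 1 (0.0911) or SL0101 replicate 2 (0.0586).

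The rapamycin libraries of the same cells showed where SL0101 differed from another kinase inhibitor, at a dose of 100 nM against 10 nM, so that dose and compound cannot be told apart. SL0101 and rapamycin libraries differed in 1052 genes, 9.34% of those tested, with 532 higher (4.72%) and 520 lower (4.62%) with SL0101. This count was 145 without SL0101 replicate 1, 628 without rapamycin replicate 2, 541 without DMSO replicate 1, 553 without DMSO replicate 2, 563 when only the 4 libraries compared were fitted and 293 with all 18 libraries. Without the expression trend limma called none, with 2133 genes at an unadjusted p under 0.05. With a common total for each library 62% of the calls were higher with SL0101, against 50.6% as reported.

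Neutrophil granule genes were among those that differed between the treatments. Mpo read 43031 and 39285 with rapamycin, above both SL0101 libraries (SL0101 minus rapamycin -1.25, limma adjusted p = 2.12e-05). Mmp8 read 265 and 326 with rapamycin, where DMSO read 265 and 288, and SL0101 lay below at 64.7 and 37.1 (-2.56, limma adjusted p = 6.93e-07). Bcl6 read 212 and 204 with rapamycin against 62.1 and 98.5 (-1.40, limma adjusted p = 0.000353), and Ifitm6 165 and 228 against 49.8 and 71.2 (-1.69, limma adjusted p = 8.54e-05). Hp went the other way, at 5295 and 5127 with rapamycin and 9176 and 8935 with SL0101 (0.80, limma adjusted p = 0.000725). Of 19 genes on the primary granule list 10 were lower and 1, Hp, was higher with SL0101 than with rapamycin. Of 33 secondary granule genes 9 were lower and 1 higher. With all 18 libraries in the fit neither granule list held a call. Without SL0101 replicate 1 both counts of lower genes were 3, and without rapamycin replicate 2 both were 6. For the macrophage genes Psap (918 and 725 with rapamycin), Fn1 (119 and 90.7) and Ctss (25.7 and 14.6), SL0101 and rapamycin differed by 0.11, -0.07 and 0.56, none of which passed the test. Of the 36 macrophage genes, 8 were lower and 2 higher with SL0101 than with rapamycin, and none was called with all 18 libraries in the fit. Mpeg1 read 268 and 269 with rapamycin (-0.86, limma adjusted p = 0.00345), Ccr2 52.2 and 45.9 (-1.26, limma adjusted p = 0.00918) and F13a1 1454 and 1260 (-0.47, limma adjusted p = 0.0397). None of these 3 calls held without SL0101 replicate 1 (adjusted p of 0.0682, 0.147 and 0.349); without rapamycin replicate 1 those of Ccr2 and F13a1 were lost (0.0557 and 0.157), and without SL0101 replicate 2 that of F13a1 (0.0518). The count of lower macrophage genes was 3 without SL0101 replicate 1 and 4 without rapamycin replicate 1.

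Growth genes also differed. Of 77 ribosomal protein genes 60 were lower with SL0101 than with rapamycin and none was higher in limma's test, with a median of -0.61; Rpl12 read 3869 and 4667 with rapamycin (-0.75, limma adjusted p = 0.00241, and 0.0515 without SL0101 replicate 1). That count was 13 without SL0101 replicate 1, 26 without rapamycin replicate 2, 31 without SL0101 replicate 2 and 56 with a common library total. Mitosis genes were higher with SL0101 in 21 of 38 and S phase genes in 13 of 43, with none lower in limma's test. Mcm6 read 1199 and 1191 with rapamycin against 2184 and 1871 (0.76, limma adjusted p = 0.00176), a call lost without SL0101 replicate 1 (adjusted p = 0.0694). The mitosis count was 11 without rapamycin replicate 1, 7 without SL0101 replicate 1 and 12 without SL0101 replicate 2, and the S phase count was 8, 1 and 6. Sterol synthesis genes were higher with SL0101 in 14 of 27, with a median of 0.63: Insig1 read 404 and 401 with rapamycin (1.43, limma adjusted p = 4.62e-06) and Sqle 228 and 203 (1.42, limma adjusted p = 2.33e-05). That count was 7 without rapamycin replicate 2, 6 without SL0101 replicate 1 and 7 without SL0101 replicate 2. With all 18 libraries in the fit, 33 ribosomal protein genes were lower, and 11 mitosis, 5 S phase and 2 sterol synthesis genes were higher. Phgdh, at 195 and 196 with rapamycin, was higher with SL0101 by 1.14 (limma adjusted p = 0.000238), and Sod2, at 1446 and 1345, by 1.04 (limma adjusted p = 0.00012). Myc read 569 and 459 with rapamycin, and its difference of -0.30 from SL0101 did not pass the test (limma adjusted p = 0.304). Dusp6 (264 and 219 with rapamycin) and Fos (31.2 and 30.2) were not called either. Median rapamycin minus DMSO differences were -1.49 for macrophage, -0.446 for lysosome and 0.765 for ribosome biogenesis genes. With SL0101 they were -1.52, -0.422 and 0.748. The same 2 DMSO libraries are subtracted in both comparisons, so the likeness of these medians is not independent of those libraries. Other medians lay apart, at 0.959 with rapamycin and 0.345 with SL0101 for ribosomal protein genes, and -0.403 and 0.328 for sterol synthesis genes.

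**Figure D5:**
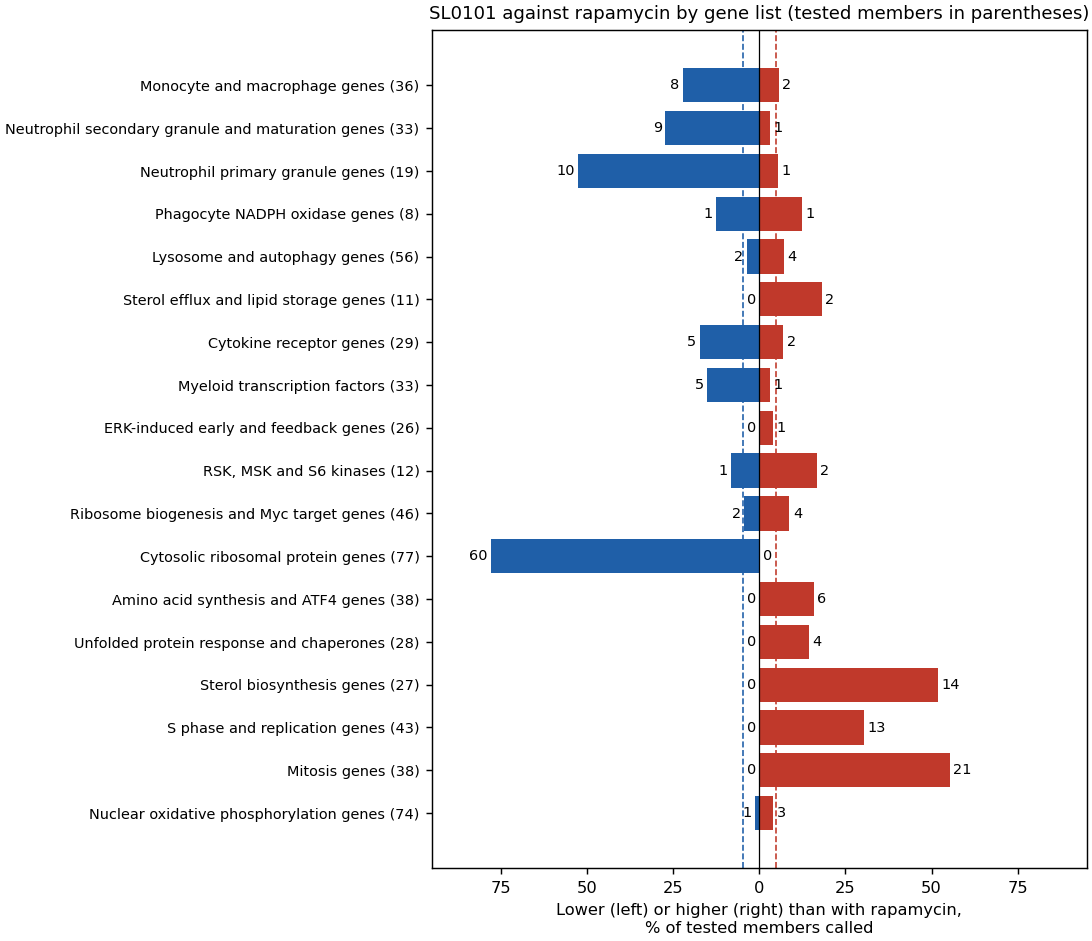
Bars give the share of each list's tested members (number in parentheses) called lower (blue, left) or higher (red, right) with SL0101 than with rapamycin, with the number of genes at the end of the bar; dashed lines mark the shares over all tested genes, 4.62% lower and 4.72% higher. Ribosomal protein (60) and primary granule genes (10) extend to the left, and mitosis (21), sterol synthesis (14) and S phase genes (13) extend to the right.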

How the data were processed

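RNA of DR-ER-Hoxb8 cells was sequenced by SmartSeq2, per the labels' protocols. BWA, TopHat2 2.0.10, Cufflinks 2.2.1 and Cuffnorm are named in the submitters' processing notes. No label or header used here names a genome build. The authors deposited 1 table of 22787 genes, whose signal values are fragments divided by a size factor for each library (98.9% to 99.1% of values are whole multiples of the library's step, within 0.01 of a step). Depth is that step's count of fragments.

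Genes with a value of 1 or more in at least 2 of the 4 SL0101 and DMSO libraries were tested with limma 3.58.1 (R 4.3.3) on log2(value + 1), with 3 groups over the 6 Hoxb8 libraries, an expression trend and robust estimation, and Benjamini-Hochberg adjustment over 11261 genes. With 2 libraries a group the model has 3 residual degrees of freedom and borrows spread across genes. A fold change on this scale understates that of low genes. The procedure was tested on simulated data.

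Named genes are the RSK genes, the 12 highest and 12 lowest changes among called genes with at least 0.001% of a library's summed value and without overlap, up to 4 called members of each of 43 gene lists by smallest p, and the 2 highest members of 5 lists; others are marked. The comparison and lists were chosen with earlier results of these data known. Alternatives covered the filter, pseudocount, scaling, trend, replicate block, libraries in the fit and each library left out. Promoters are RefSeq windows. Some items are not reported here.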

Additional observations from a re-analysis of the deposited data

How the results depend on the processing

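Depth of 2313884 to 3296898 fragments and 2 libraries a group limit these results, so a gene that was not called was not shown to be unchanged. For SL0101 against DMSO (1294 calls), 128 were called without the expression trend and 657 with all 18 libraries, and leaving out 1 library gave 309 to 1521. The filters, pseudocounts, scalings, non-robust fit, voom weights and 4-library fit gave 1084 to 1572. For SL0101 against rapamycin (1052 calls), none was called without the trend (0 by limma, with 2133 at an unadjusted p under 0.05), 293 with all 18 libraries and 563 with the 4 libraries alone, and leaving out 1 library gave 145 to 757; with voom 61.7% and with a common total 62% of calls were higher. Of 125 named calls, 16 held under all 19 alternatives and none reversed. The difference of Rps6ka1, not called, ran from -0.188 to 0.0712 when 1 library was left out, being above 0 without SL0101 replicate 1. Over all tested genes, same-numbered libraries deviated together by a correlation of 0.047 (SL0101 and DMSO) and 0.012 (SL0101 and rapamycin). The numbers were not taken as pairs, but a correlation over all genes does not test a replicate effect shared by a few of them. The replicate block gave 1855 and 1704 calls. With the block S100a8 and S100a9 were called (limma adjusted p = 3.98e-08 and 2.99e-10), which they were not without it. The cause was not tested where none is given by fewer samples. Planned count tests (edgeR, DESeq2) were not run, because the scaled values were not accepted as whole reads. The voom alternative used fragments recovered from each library's step.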

Other observations

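Amd1 and Amd2, near-identical copies of the gene for S-adenosylmethionine decarboxylase of polyamine synthesis, showed a split of reads in 1 library; they were chosen after their values were seen. Amd1 read 331 and 382 in the DMSO libraries and 1.03 and 440 in the SL0101 libraries, while Amd2 read 0.551 and 0.691 with DMSO and 400 and 4.7 with SL0101. Neither difference passed limma's test (adjusted p = 0.575 for Amd1 and 0.307 for Amd2). Summed over both copies, the values were 332 and 383 with DMSO, 401 and 445 with SL0101 and 556 and 490 with rapamycin, so the 2 SL0101 libraries are close once the copies are added. A single-copy value for either gene in SL0101 replicate 1 is therefore uncertain.

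Cd177, a surface glycoprotein of maturing neutrophils that was also chosen after its values were seen, had 3 separate levels. It read 272 and 239 with DMSO, 60.3 and 74.3 with SL0101 and 21.1 and 20.2 with rapamycin. SL0101 lay below DMSO by -1.91 (limma adjusted p = 1.85e-05) and above rapamycin by 1.65 (limma adjusted p = 0.000255), and both calls held without any 1 of the libraries compared. Mmp8, of the same list, lay lowest with SL0101.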
